A study of Mus musculus with 23 samples.

Results

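Transcript levels of 10 receptor tyrosine kinases were examined in individual bone marrow-derived mesenchymal stem cells of the mouse (mMSCs) and in individual HL-1 cardiomyocytes (HL1cm, a mouse line with cardiac muscle features). The receptors were Pdgfra, Pdgfrb, Fgfr1, Fgfr2, Egfr, Erbb2, Met, Axl, Ddr2 and Kit. They were chosen by symbol, and all 10 were found among the 23284 genes of the table. Axl, Fgfr1 and Pdgfrb were at 7.57 FPKM or more in every mMSC and below 1 FPKM in every HL1cm, Ddr2 was at 1.36 FPKM or more in all 21 single cells, Pdgfra and Egfr were each found in some mMSCs, Met, Fgfr2 and Erbb2 in fewer, and Kit was listed at 0 in all 23 libraries.

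The study took RNA-seq libraries from 16 single mMSCs (mMSC1 to mMSC16), 5 single HL1cm (HL1cm1 to HL1cm5) and 1 population control of bulk RNA for each cell type (mMSC-PC and HL1cm-PC). Both cell types carried the strain label C57BL/6J. The mMSCs were purchased bone marrow cells of male mice, 3 months old by the study's methods, used at passages 6 to 11 and grown in alpha-MEM with fetal bovine serum, and HL1cm were used at passages 70 to 85 and grown in Claycomb medium with serum and norepinephrine, so that cell type, passage and medium cannot be told apart. Cells of both types were captured on the same Fluidigm C1 chip for large cells, and the HL1cm bore a green cytoplasmic dye. HL1cm served as the control cells for markers of mMSCs. Since no separate cultures were named, each cell type was 1 sample: the spread between cells is that within a culture, and differences between cell types were described without a test.

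A receptor tyrosine kinase spans the cell membrane, binds a ligand outside the cell and, once paired or clustered, phosphorylates tyrosines on its own tail. Adaptors dock there and start the Ras-MAPK, PI3K-Akt and other cascades, while phosphatases, Sprouty proteins and Errfi1 restrain them. PDGF and FGF receptors are known for their part in growth and migration of mesenchymal cells, Ddr2 for sensing fibrillar collagen and Axl for binding Gas6. Egfr and Erbb2 are known for the response to EGF family ligands and neuregulins, Met for that to hepatocyte growth factor, and Kit for that to stem cell factor in blood progenitors and mast cells.

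Levels are given in FPKM, the number of sequenced fragments scaled to transcript length and to the size of the library, and so can be set side by side between genes. The single mMSCs reached 1 FPKM for 5178 to 7241 genes and the single HL1cm for 6428 to 7010, while the population controls reached it for 9625 (mMSC) and 9881 (HL1cm) genes. Read counts were not used here. From the low end of the values, 1 read pair was worth about 1.81 to 11.2 FPKM per kilobase of transcript, with mMSC9 the shallowest library and mMSC15 the next. In 7 cells (mMSC1, mMSC5, mMSC8, mMSC16, HL1cm1, HL1cm3 and HL1cm5) the short gene Mir3470a held 42.2% to 72.3% of summed FPKM. A value of 0 is not always absence, since 5 of 352 genes that were at 100 FPKM or more in at least 20 of the 21 cells were listed at 0 in the remaining cell. Of 8 mesenchymal markers, 7 were at 1 FPKM or more in every mMSC and 3 (Sparc, Fn1 and Vim) in every HL1cm, with summed lists of 2893 to 7110 FPKM and 760 to 1598 FPKM. Ly6a was at 167 FPKM or more in every mMSC and at 0 in every HL1cm, and the summed FPKM of 11 cardiomyocyte markers was 0 to 65.4 in mMSCs and 32152 to 56704 in HL1cm. Myl7 alone was at 20292 to 46701 FPKM in HL1cm. Of the 11 markers, 8 were at 1 FPKM or more in every HL1cm, Nppa and Nkx2-5 in 2 HL1cm and Myh7 in 1. In mMSCs, 6 of the 11 reached 1 FPKM in some cell, with Tnnt2 in 6 mMSCs, up to 40.8 FPKM.

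Promoter letters are shown for Axl, which was the most abundant receptor in mMSCs, for Egfr and Pdgfra, which varied from cell to cell, for Ddr2, which was found in every cell, and for Kit, which was found in none. RefSeq windows (build GRCm38.p6) were matched for 8 of the 10 receptors; Fgfr1 and Pdgfrb were not matched. Each line gives the 250 bases before a start of transcription, or for Kit the 179 bases before its first annotated exon, from 5′ to 3′ on the strand of the gene. They lie at chr7:25788734-25788983 (minus strand, Axl), chr11:16751953-16752202 (plus, Egfr), chr5:75152001-75152250 (plus, Pdgfra), chr1:170088945-170089194 (minus, Ddr2) and chr5:75574737-75574915 (plus, Kit). The genes themselves span chr7:25757273-25788705 (Axl), chr11:16752203-16918158 (Egfr), chr5:75152292-75198215 (Pdgfra), chr1:169972307-170110762 (Ddr2) and chr5:75574916-75656722 (Kit) in GENCODE M21 of the same genome. None of the printed letters lies in an annotated exon, and the Ddr2 window lies inside the longer annotated gene. Capitals mark a GC box (GGGCGG) or a TATA box (TATAAA) on either strand.
Axl: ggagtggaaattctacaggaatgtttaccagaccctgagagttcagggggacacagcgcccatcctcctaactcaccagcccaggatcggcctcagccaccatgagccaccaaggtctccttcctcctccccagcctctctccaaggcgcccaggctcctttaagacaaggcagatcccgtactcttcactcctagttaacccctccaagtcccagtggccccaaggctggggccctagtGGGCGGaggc
Egfr: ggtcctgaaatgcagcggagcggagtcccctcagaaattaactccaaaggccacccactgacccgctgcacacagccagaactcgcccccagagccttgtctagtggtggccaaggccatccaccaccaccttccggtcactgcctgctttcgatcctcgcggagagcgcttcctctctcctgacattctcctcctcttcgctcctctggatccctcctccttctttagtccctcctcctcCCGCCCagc
Pdgfra: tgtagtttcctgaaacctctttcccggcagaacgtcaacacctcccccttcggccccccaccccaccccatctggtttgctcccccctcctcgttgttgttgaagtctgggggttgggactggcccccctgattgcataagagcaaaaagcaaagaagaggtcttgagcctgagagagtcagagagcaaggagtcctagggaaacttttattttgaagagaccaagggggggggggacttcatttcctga
Ddr2: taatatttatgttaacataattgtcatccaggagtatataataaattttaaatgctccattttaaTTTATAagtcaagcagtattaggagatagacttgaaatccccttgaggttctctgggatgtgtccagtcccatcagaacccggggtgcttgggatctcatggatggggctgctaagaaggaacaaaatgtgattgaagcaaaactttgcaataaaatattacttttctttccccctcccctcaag
Kit: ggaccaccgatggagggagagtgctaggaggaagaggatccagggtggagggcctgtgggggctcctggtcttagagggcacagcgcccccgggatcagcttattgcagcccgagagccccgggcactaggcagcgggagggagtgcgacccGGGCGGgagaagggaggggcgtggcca
Axl, Egfr and Kit each held 1 GC box, with Egfr's on the opposite strand, and Ddr2 held 1 TATA box on the opposite strand. Pdgfra held neither, and no printed window held the AP-1 letters TGANTCA. Among the full 250 bases of all 32536 mouse windows, 33.0% held the GC box, 12.3% the TATA box and 6.73% the AP-1 letters. GC content was 60.0% for Axl, 60.8% for Egfr, 54.4% for Pdgfra, 37.6% for Ddr2 and 69.3% for Kit, against a median of 52.4% over all windows. Egfr held 11 CpG dinucleotides, Kit 10, Axl 5, Pdgfra 4 and Ddr2 1, where the median window held 6. The motifs searched do not overlap each other in these windows, and a match describes the letters only.

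Axl, a receptor of the TAM family, was the leading receptor of mMSCs. It ranged from 14.2 to 72.7 FPKM over the 16 mMSCs with a median of 54.3, was at 212 FPKM in mMSC-PC, was listed at 0 in all 5 HL1cm and was at 9.56 FPKM in HL1cm-PC. The cells with the least Axl were mMSC13 (14.2 FPKM) and mMSC8 (17.1 FPKM), mMSC2 had the most, and no mMSC overlapped any HL1cm. On the log2 scale its mean in mMSCs was 5.51 ± 0.71 (SD, n = 16 cells), a spread of 5.12-fold from lowest to highest. About 3 read pairs of Axl would be worth 1.53 to 2.78 FPKM in a single HL1cm, so that a level under this would rest on fewer pairs and might be listed at 0. The value in HL1cm-PC corresponded to about 9.37 read pairs. In a bulk library, fewer cells of a type and less RNA per cell cannot be told apart, and whether a few HL1cm or all of them gave this signal was not tested.

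Fgfr1, a receptor for fibroblast growth factors, was the next in order. Its levels in mMSCs lay between 12.7 FPKM (mMSC8) and 97.5 FPKM (mMSC9) with a median of 33.1, and mMSC-PC was at 30.4 FPKM. HL1cm4 had 0.934 FPKM, while the other 4 HL1cm and HL1cm-PC were listed at 0. Every mMSC was thus above every HL1cm, and mMSC-PC lay within the range of single mMSCs. The mean log2 FPKM in mMSCs was 5.12 ± 0.77 (SD, n = 16), with mMSC9, mMSC2 (69.9 FPKM), mMSC5 (57.4 FPKM) and mMSC16 (55.1 FPKM) the highest cells. The cell with the most Fgfr1 was also the shallowest library, and its part in that value was not tested.

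Pdgfrb, a receptor for PDGF-BB that is widely used as a marker of pericytes and stromal cells, ranged from 7.57 FPKM (mMSC13) to 48.3 FPKM (mMSC2), with a median of 20.8. It was at 90.3 FPKM in mMSC-PC, and the 5 HL1cm and their population control were listed at 0. Again no mMSC overlapped the HL1cm, and mMSC-PC was above the highest single mMSC. The mean log2 FPKM was 4.28 ± 0.85 (SD, n = 16). Of 6 pericyte and smooth muscle markers, Acta2 was found in every cell of both types, Des and Mcam were at least 4-fold higher in HL1cm, Rgs5 was at 1 FPKM or more in 1 mMSC, and Myh11 was at 0 in all cells; the summed level of the list was 36.9 to 2222 FPKM in mMSCs and 934 to 3674 FPKM in HL1cm.

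Its paralogue Pdgfra, which binds PDGF-AA among others, behaved differently between cells. It was above 0 in 11 mMSCs and at 1 FPKM or more in 10, or 62.5% of mMSCs (exact 95% interval 35.4% to 84.8%, for counting error only). The highest were mMSC13 (29.5 FPKM), mMSC8 (17.5 FPKM), mMSC7 (13.9 FPKM) and mMSC2 (13.7 FPKM), whereas mMSC1, mMSC4, mMSC11, mMSC15 and mMSC16 were listed at 0. The 2 cells richest in Pdgfra were also the 2 cells poorest in Axl, while over all 16 mMSCs the genes had r -0.34 and rho -0.03. mMSC-PC was at 21.5 FPKM, below the highest mMSC, and all 5 HL1cm and HL1cm-PC were listed at 0. A count of 3 read pairs would be worth 0.793 to 4.90 FPKM in a single mMSC, and mMSC15, 1 of the cells at 0, was the second shallowest library. Pdgfra shares 4.05% of its 75-base words with transcripts annotated on the other strand, and reads of both strands were counted together.

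Egfr, the epidermal growth factor receptor, was above 0 in 10 mMSCs, again 62.5% of them (35.4% to 84.8%). Among these 10 it ran from 1.67 to 21.8 FPKM, with mMSC14 far above the next cell, mMSC2 (8.45 FPKM). The cells mMSC1, mMSC6, mMSC8, mMSC9, mMSC11 and mMSC16 were listed at 0, as were the 5 HL1cm and HL1cm-PC, and mMSC-PC was at 18.9 FPKM. Egfr and Pdgfra were found together in 7 mMSCs, Pdgfra without Egfr in 3, Egfr without Pdgfra in 3 and neither in 3, so that the cells with 1 were not the same set as the cells with the other.

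**Figure D1:**
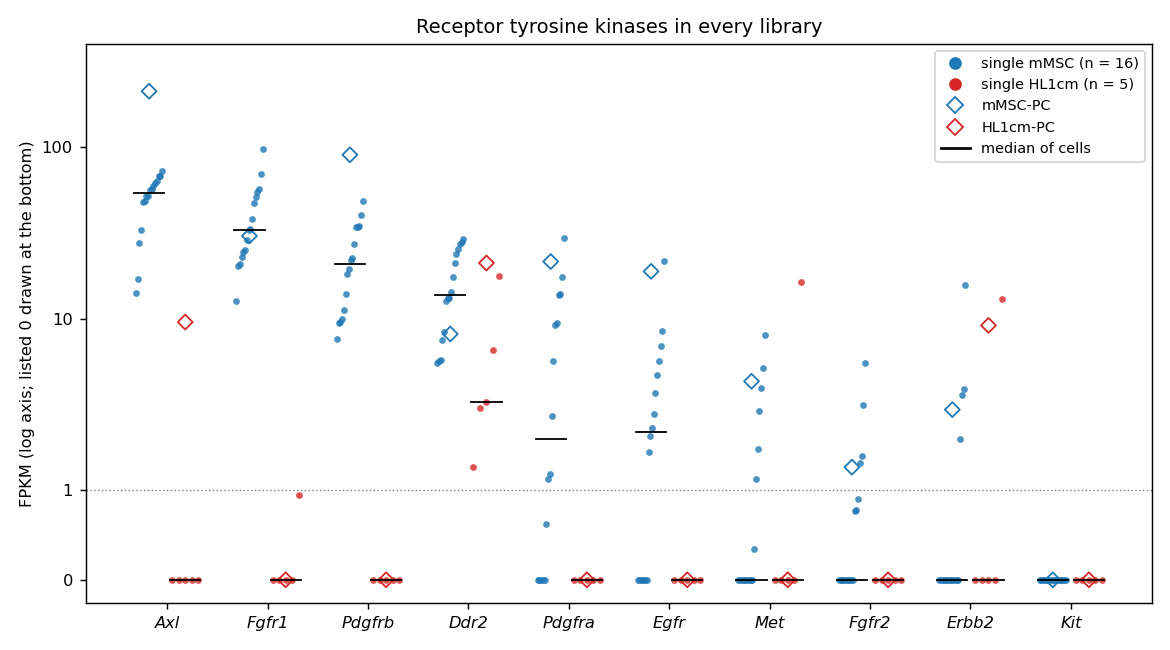
FPKM of the 10 receptors (log axis, with values listed at 0 drawn at the bottom and a dotted line at 1 FPKM) in 16 single mMSCs (blue points), 5 single HL1cm (red points) and the population controls (open diamonds), with black bars at the median of each set of cells. Axl, Fgfr1 and Pdgfrb are separated between the cell types, Ddr2 is not, and the diamonds of mMSC-PC for Axl (212 FPKM) and Pdgfrb (90.3 FPKM) stand above every mMSC.

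Ddr2, a receptor activated by fibrillar collagen rather than by a soluble ligand, was the only 1 of the 10 found in every cell of both types. In mMSCs it ranged from 5.54 FPKM (mMSC2) to 29.2 FPKM (mMSC10), with a median of 13.8, and mMSC-PC was at 8.14 FPKM. The HL1cm values were 6.59, 3.29, 3.03, 1.36 and 17.8 FPKM for HL1cm1 to HL1cm5, and HL1cm-PC was at 21.1 FPKM, above every single HL1cm. HL1cm5 lay among the higher mMSCs and HL1cm1 among the lowest, so the groups overlapped, with 6 mMSCs above the highest HL1cm. Mean log2 FPKM was 3.79 ± 0.87 (SD, n = 16) in mMSCs and 2.13 ± 1.39 (SD, n = 5) in HL1cm. The difference of 1.67 is less than 4-fold. On the TPM scale and divided by Gapdh it was 2.00, just past 4-fold. It was 1.37 by median ratio scaling and 1.34 by log2 of the mean FPKM. Over all settings it ran from 0.50, with values under 10 FPKM set to 10, to 2.87. The order was the opposite in the population controls, where HL1cm-PC was above mMSC-PC.

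Ddr2's value in HL1cm rested in part on HL1cm5, in which Mir3470a held 72.3% of summed FPKM. Without HL1cm5 the difference was 2.17 on the log2 scale, and without all 7 cells rich in Mir3470a it was 2.87, with no mMSC overlapping the 2 remaining HL1cm. Exons of Ddr2 overlap those of 3110045C21Rik on the other strand, and a library that does not keep the strand cannot tell their reads apart where they overlap. Of Ddr2's 75-base words, 0.471% are shared with other genes, 3110045C21Rik among them. That gene was at 0, 15.3, 102, 25.9 and 4.94 FPKM in HL1cm1 to HL1cm5, at 10.5 FPKM in HL1cm-PC, above 0 in 6 mMSCs at 3.33 to 17.5 FPKM, and at 0 in mMSC-PC. Ddr2 itself was at 6.59, 3.29, 3.03, 1.36 and 17.8 FPKM in HL1cm1 to HL1cm5. The part of antisense reads in these values was not tested.

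Met, the receptor for hepatocyte growth factor, was above 0 in 7 mMSCs and at 1 FPKM or more in 6, or 37.5% (15.2% to 64.6%). Its highest mMSCs were mMSC5 (8.0 FPKM), mMSC14 (5.16 FPKM) and mMSC6 (3.96 FPKM), and mMSC-PC was at 4.32 FPKM. HL1cm3 was at 16.5 FPKM, above every mMSC, while the other 4 HL1cm and HL1cm-PC were listed at 0. That value in HL1cm3 corresponded to about 35.3 read pairs, and Mir3470a held 44.2% of this cell's summed FPKM.

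Erbb2, which has no known ligand of its own and pairs with other EGF receptors, was found in 4 mMSCs, or 25.0% (7.27% to 52.4%). These were mMSC12 at 15.8 FPKM, mMSC16 at 3.90 FPKM, mMSC13 at 3.59 FPKM and mMSC8 at 1.99 FPKM, the last from about 1.99 read pairs. In HL1cm it was at 12.97 FPKM in HL1cm2 and at 0 in the other 4, and the population controls were at 2.95 FPKM (mMSC-PC) and 9.14 FPKM (HL1cm-PC). For both Met and Erbb2, a single HL1cm (20.0%, 0.505% to 71.6%) carried the whole signal of its cell type. Erbb3 and Erbb4, which are partners of Erbb2, were at 0 in all single cells and in mMSC-PC, while HL1cm-PC had 5.50 FPKM of Erbb3.

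Fgfr2 was above 0 in 7 mMSCs and at 1 FPKM or more in 4, with mMSC10 the highest at 5.52 FPKM and mMSC9 next at 3.12 FPKM. About 1.24 read pairs stood behind the value in mMSC9. It was at 1.36 FPKM in mMSC-PC and at 0 in every HL1cm library. Fgfr2 also shares 2.19% of its 75-base words with Ctbp2, through an annotated transcript that reads through from one gene to the other.

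Kit, known from mast cells and blood progenitors, was listed at 0 in all 16 mMSCs, all 5 HL1cm and both population controls. The exact interval for 0 of 16 mMSCs reaches 20.6% of cells, and 3 read pairs would be worth 1.03 to 6.39 FPKM in a single mMSC. Its ligand Kitl was at 1 FPKM or more in 9 mMSCs, up to 22.0 FPKM, and at 0 in HL1cm. Ptprc, Cpa3, Tpsb2 and Tal1, 4 of 6 markers of mast cells and blood progenitors, were at 0 in all single cells, and the summed level of the list was 0 to 67.4 FPKM in mMSCs and 0 to 31.7 FPKM in HL1cm. Gata2 and Cd34 made up these sums.

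**Figure D2:**
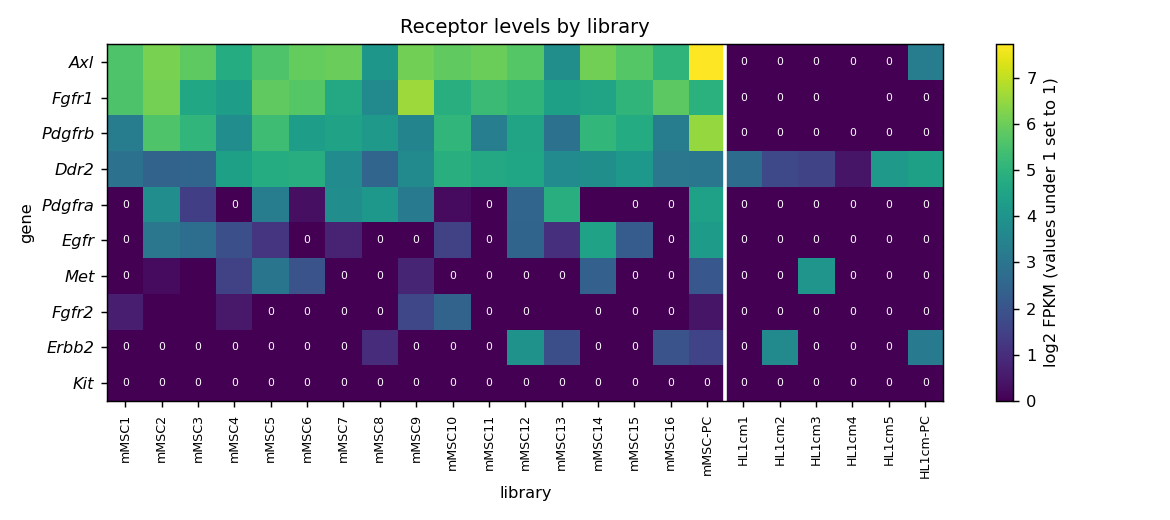
Log2 FPKM (colour scale, values under 1 FPKM set to 1) of the 10 receptors (rows) in each library (columns), with a white 0 where the table lists 0; dark squares without a 0 hold values between 0 and 1 FPKM or just above. Axl, Fgfr1, Pdgfrb and Ddr2 fill all 16 mMSC columns, while Pdgfra, Egfr, Met, Fgfr2 and Erbb2 are patchy.

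The order of the medians in mMSCs was Axl, Fgfr1, Pdgfrb, Ddr2, Egfr and Pdgfra, followed by Erbb2, Fgfr2, Met and Kit with medians of 0. Axl was above Fgfr1 in 12 of 16 mMSCs, with a mean difference within cells of 0.39 ± 0.69 on the log2 scale (SD, n = 16), and Fgfr1 was above Pdgfrb in 12, by 0.84 ± 1.16. Pdgfrb was above Ddr2 in 10 of 16 cells, by 0.49 ± 1.20. In these 3 neighbouring pairs the mean difference was smaller than its SD over cells. The order thus changed from cell to cell, and whether the means differ was not tested. Ddr2 was above Egfr in 13 cells, by 2.45 ± 1.67. Egfr was above Pdgfra in 5 cells and below it in 8, with 3 cells at 0 for both.

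A single mMSC held 4 to 7 of the 10 receptors (median 6) at 1 FPKM or more, and a single HL1cm held 1 or 2 (median 1). Their summed FPKM was 73.3 to 221 (median 138) in mMSCs and 2.30 to 19.5 (median 16.3) in HL1cm, so that the cell types did not overlap. It was 390 FPKM in mMSC-PC and 39.8 FPKM in HL1cm-PC. Axl was the leading receptor in 11 mMSCs, Fgfr1 in 3 (mMSC5, mMSC9 and mMSC16), Pdgfra in mMSC13 and Pdgfrb in mMSC8. Axl gave 15.5% of the sum in mMSC13 and 46.3% in mMSC11, and Pdgfra gave 32.1% in mMSC13 and 23.9% in mMSC8. In HL1cm1 and HL1cm5 Ddr2 was the whole sum, in HL1cm2 Erbb2 gave 79.8% and in HL1cm3 Met gave 84.5%. Across the 16 mMSCs the number of receptors detected was weakly related to the number of genes detected (Pearson's r -0.13, Spearman's rho -0.18), as a description.

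**Figure D3:**
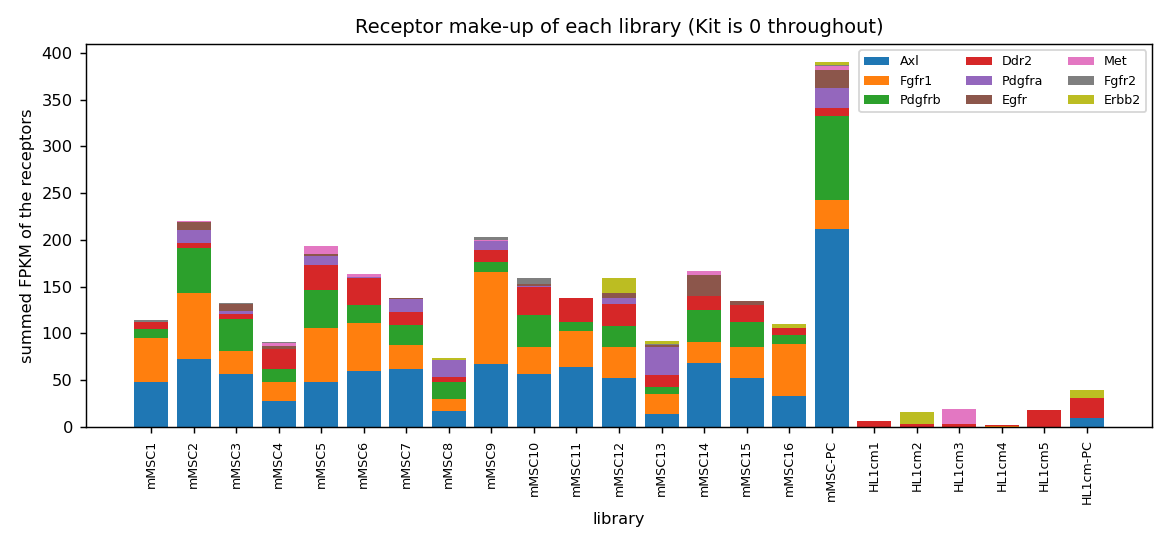
Summed FPKM of the receptors (bar height, linear axis from 0) in each library, coloured by receptor; Kit adds nothing. The mMSC bars run from 73.3 FPKM (mMSC8) to 221 FPKM (mMSC2) and mMSC-PC reaches 390 FPKM, whereas the HL1cm bars stay at or under 19.5 FPKM and change colour from cell to cell.

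Spread between mMSCs was similar among the 4 receptors found in all of them, with SDs of log2 FPKM of 0.71 (Axl), 0.77 (Fgfr1), 0.85 (Pdgfrb) and 0.87 (Ddr2). The median SD over the 2143 genes at 1 FPKM or more in all 16 mMSCs was 0.86. Among pairs of receptors, Pdgfrb and Egfr moved most alike over the 16 mMSCs (r 0.68, rho 0.73), then Fgfr1 and Axl (r 0.56, rho 0.43) and Pdgfrb and Axl (r 0.49, rho 0.50). Pdgfra and Pdgfrb showed almost no relation (r 0.06, rho 0.18), and Axl and Erbb2 had r -0.39 and rho -0.58, with Erbb2 at 0 in 12 of the 16 cells and the cell richest in Erbb2, mMSC12, near the Axl median at 51.9 FPKM. Erbb2 was not found at 1 FPKM or more in the same mMSC as Met or Fgfr2. Erbb2 reached that level in only 4 of the 16 mMSCs, Met in 6 and Fgfr2 in 4, so little overlap was possible. Below that level, mMSC13 held both Erbb2 (3.59 FPKM) and Fgfr2 (0.759 FPKM). These points share 1 chip and differ in depth, the cells being of 1 cell type, and the values are descriptions without a test.

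Genes with the largest Pearson's r to a receptor over the 16 mMSCs were sought among the 6777 genes that reached 1 FPKM in 8 mMSCs or more. For Axl these were S100a1 (r 0.89), Scd1 (0.85) and Xpnpep1 (0.79), and for Fgfr1 they were 0610007N19Rik (0.80), Pdpn (0.78) and Gm8773 (0.77). Dpp9 (0.81), Slc23a2 (0.77) and Smg1 (0.77) were most like Pdgfrb, and Runx1t1 (0.82), Tet2 (0.79) and Fam108b (0.78) most like Egfr. Ddr2 was followed by Acbd5 (0.77), Wdyhv1 (0.75) and Smarca2 (0.74), and Pdgfra by Ddx3x (0.76), H47 (0.74) and Tfe3 (0.74). By rank the relations were weaker for some of them, with rho 0.72 for S100a1, 0.51 for Scd1 and 0.55 for Xpnpep1 and between 0.61 and 0.82 for the other 15 genes. These are the top 3 of 6777 correlations for each receptor, and none was tested.

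Set against the table as a whole, 3 of the 10 receptors (Axl, Fgfr1 and Pdgfrb) were at least 4-fold higher in mMSCs, where 8.77% of 11850 genes tested were, and none was at least 4-fold higher in HL1cm, where 9.27% were. A gene was tested where it was at 1 FPKM or more in at least 2 of the 21 single cells, which Kit was not. Values under 1 FPKM were set to 1, so the differences in mean log2 FPKM of 5.51 for Axl, 5.12 for Fgfr1 and 4.28 for Pdgfrb depend on that floor, and no fold is given against values listed at 0. Pdgfra (1.72) and Egfr (1.34) stayed under the limit of 2, as did Fgfr2 (0.33), Met (-0.19) and Erbb2 (-0.19), and the sign of these last values changed with the setting, between -1.17 and 0.62 for Met and between -1.36 and 0.55 for Erbb2. The median difference of the 9 receptors tested was 1.67, and that of all genes tested was 0.08. Only 3 of the 10 receptors reached 1 FPKM in any HL1cm. The others tested passed through mMSCs alone, so their differences could only be positive. The median of the receptors therefore cannot show a shift of the whole group. Other ways to scale the libraries moved the median of all genes to 0.23 (TPM scale) and -0.06 (median ratio), and moved the share of 4-fold calls that were higher in mMSCs from 48.6% to 58.8% and 40.8%. All 3 receptors stayed at least 4-fold higher in mMSCs under them, and Ddr2 joined the calls on the TPM scale. Scaling leaves a 0 at 0, so a receptor at 0 in every HL1cm could not reverse its direction.

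The same 3 receptors were above every HL1cm in every mMSC, as were 2.19% of genes tested, and no receptor was above every mMSC in every HL1cm, as were 1.77%. Receptors under 1 FPKM in every HL1cm, these 3 among them, could not be higher in HL1cm. For them the second outcome was fixed beforehand, and only Ddr2, Met and Erbb2 could have gone that way. All 16 mMSCs held 4 receptors at 1 FPKM or more (18.1% of genes tested), 2 of them, Axl and Pdgfrb, with 0 in all 5 HL1cm (0.684%), and Ddr2 alone in all 21 single cells (12.9%). Between the population controls, 6 receptors (Pdgfra, Pdgfrb, Fgfr1, Egfr, Met and Axl) were at least 4-fold higher in mMSC-PC, where 9.98% of genes were, and none in HL1cm-PC, where 16.7% were. With 1 library on each side, this comparison has no replicate check, and receptors listed at 0 in HL1cm-PC could not be higher there.

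In mMSC-PC the receptors ran in the order Axl, Pdgfrb, Fgfr1, Pdgfra, Egfr, Ddr2, Met, Erbb2 and Fgfr2. It was above every single mMSC for Axl and Pdgfrb, as for 8.60% of 10867 genes, and 4.24 and 3.98 times their mean over the 16 cells. Egfr was at 5.02 times its mean, Pdgfra at 3.29, Met at 2.96, Erbb2 at 1.87 and Fgfr2 at 1.55, all within the range of the cells. Fgfr1 and Ddr2 were at 0.762 and 0.502 times their means, also within that range. The median of this ratio over the 10867 genes was 0.991. HL1cm-PC was above every HL1cm for Ddr2, as for 29.0% of 8244 genes. Axl in HL1cm-PC had no counterpart in the 5 HL1cm, and Met in HL1cm3 had none in HL1cm-PC. Of the mesenchymal markers, HL1cm-PC had Ly6a, Cd44, Col1a2 and Col3a1 at 0, Col1a1 at 1.67 FPKM, Fn1 at 11.0 FPKM, Sparc at 1090 FPKM and Vim at 1097 FPKM, and a summed list of 2199 FPKM; their part in its Axl value was not tested.

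Ligands of these receptors were measured in the same cells. Of 4 PDGF genes, Pdgfa and Pdgfc, ligands of Pdgfra among others, were at least 4-fold higher in mMSCs. Pdgfa was at 1 FPKM or more in 12 mMSCs with a median of 37.7 FPKM and in 2 HL1cm, and Pdgfc in 15 mMSCs with a median of 12.2 FPKM and in no HL1cm. Of the ligands of Pdgfrb, Pdgfb was found in 1 mMSC (5.11 FPKM) and 1 HL1cm (7.15 FPKM), and Pdgfd in 7 mMSCs, up to 23.9 FPKM, and no HL1cm. Of 18 FGF genes, 11 were at 0 in all single cells and 1, Fgf7, was at least 4-fold higher in mMSCs. Fgf7, known as keratinocyte growth factor and as a ligand of an epithelial form of Fgfr2, was at 52.6 to 497 FPKM in mMSCs (median 232), higher than any of the 10 receptors by median, and in HL1cm only 1 cell was above 1 FPKM, at 21.1 FPKM. Fgf1 was at 0 in all mMSCs and at 1 FPKM or more in 3 HL1cm, up to 13.7 FPKM. Fgf2 and Fgf10 were found in 2 and 3 mMSCs, up to 14.9 and 8.71 FPKM, and Fgf18 in 1 HL1cm (31.6 FPKM).

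For the EGF family, 3 of 11 ligand genes were at least 4-fold higher in mMSCs and none in HL1cm. Hbegf ranged from 4.82 to 80.5 FPKM in mMSCs (median 26.6) and from 0 to 15.4 FPKM in HL1cm, and Ereg from 1.77 to 152 FPKM in mMSCs (median 22.5) with 0.723 FPKM at most in HL1cm. Nrg1, whose receptors Erbb3 and Erbb4 were at 0 in all single cells, was found in 13 mMSCs with a median of 29.5 FPKM and in no HL1cm. Both Ereg and Hbegf were thus present in every mMSC, including the 6 in which Egfr was listed at 0. Btc was found in 4 mMSCs (up to 16.8 FPKM) and 1 HL1cm (1.37 FPKM), and Tgfa in 2 mMSCs and 1 HL1cm, up to 2.0 FPKM. Of 4 ligand genes listed for Met, Axl and Kit, Hgf was at 0 in all 23 libraries. Gas6, the Axl ligand, was at least 4-fold higher in HL1cm, in which it was found in 4 of 5 cells at up to 55.2 FPKM. In mMSCs Gas6 was found in 6 cells, up to 15.4 FPKM. The population controls ran the other way, with mMSC-PC at 42.6 FPKM and HL1cm-PC at 31.0 FPKM. Pros1, also on that list but not an established ligand of Axl, was found in 8 mMSCs and no HL1cm.

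Of 5 collagen genes whose products bind Ddr2, 3 were at least 4-fold higher in mMSCs. Col1a1 was at 30.8 to 385 FPKM and Col1a2 at 80.3 to 1194 FPKM in mMSCs, and Col3a1 was found in 12 mMSCs, up to 25.2 FPKM. In HL1cm, where Ddr2 was found in every cell, Col1a1 was above 1 FPKM in 1 cell (7.61 FPKM), and Col1a2 and Col3a1 were at 0. Col2a1 was at 0 in all single cells and at 6.59 FPKM in HL1cm-PC.

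Of 48 other receptor tyrosine kinases, 22 were at 1 FPKM or more in any mMSC and 14 in any HL1cm, none in all 16 mMSCs and 2 in all 5 HL1cm. Ryk and Styk1 were at least 4-fold higher in mMSCs and Ddr1 in HL1cm. Ryk, a Wnt receptor, was found in 15 mMSCs with a median of 13.9 FPKM, Styk1 in 11 with a median of 5.86 FPKM, and Igf1r in 13 mMSCs (median 4.58 FPKM) and all 5 HL1cm (1.09 to 4.60 FPKM). Ddr1, the other collagen receptor of the family, was at 3.12 to 46.1 FPKM in HL1cm (median 15.2) and had a median of 1.41 FPKM in mMSCs, where 8 cells had it. Like Ddr2, it was higher in HL1cm-PC (29.0 FPKM) than in mMSC-PC (1.33 FPKM). Insr, the insulin receptor, was found in 4 mMSCs (median 0.231 FPKM, up to 31.8 FPKM) and in 4 HL1cm (median 8.05 FPKM), less than 4-fold apart. Csf1r, a receptor known from macrophages, was found in 8 mMSCs, up to 32.6 FPKM, and in no HL1cm. Of 7 macrophage markers, Ptprc, Emr1 and Lyz2 were at 0 in all single cells and Cd14 was found in 15 mMSCs; the summed list was at 3.10 to 369 FPKM in mMSCs and 0 to 1.10 FPKM in HL1cm. Kdr was found in 1 mMSC and 2 HL1cm, with Cdh5, Tek, Tie1 and Vwf, 4 of 6 endothelial markers, at 0 in all single cells and the summed list at 0 to 10.8 FPKM in mMSCs and 0 to 13.8 FPKM in HL1cm.

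Most genes downstream of the receptors were found in both cell types. No co-receptor of 5 differed by 4-fold; Nrp1, a co-receptor for several growth factors, had a median of 14.2 FPKM in mMSCs and 17.5 FPKM in HL1cm. Nrp2 had medians of 4.07 and 2.80 FPKM, Fgfrl1 was found in 7 mMSCs, up to 43.3 FPKM, and Kl in 1 HL1cm (1.14 FPKM). Of 28 adaptors and kinases, 27 were in the table, all of them at 1 FPKM or more in any mMSC and 25 in any HL1cm; Map2k1, Akt1 and Shc1 were at least 4-fold higher in mMSCs, and the median difference over the list was -0.01. Gab1, a docking protein for Met and Egfr, was at least 4-fold higher in HL1cm, at 2.53 to 30.7 FPKM there, and was found in 3 mMSCs, up to 8.19 FPKM. Nras was at 60.4 FPKM or more in every mMSC and at 42.2 FPKM or more in every HL1cm. Araf had medians of 53.6 FPKM in mMSCs and 52.5 FPKM in HL1cm, and Stat3 of 17.8 and 13.6 FPKM.

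Among 18 inhibitors only Errfi1, which binds and restrains Egfr and Erbb2, passed the limit, at 14.1 to 228 FPKM in mMSCs (median 48.7) and at 0 in all 5 HL1cm, with HL1cm-PC at 4.73 FPKM. Errfi1 was thus found in all 16 mMSCs, and Egfr in 10 of them. Spry2 was found in every cell, with medians of 23.2 FPKM in mMSCs and 11.5 FPKM in HL1cm. Dusp6, a phosphatase of Erk, had medians of 19.1 and 3.39 FPKM in mMSCs and HL1cm, whereas Spred1 (1.96 and 14.1 FPKM), Ptpn1 (6.52 and 18.5 FPKM) and Cbl (0 and 3.48 FPKM) had the higher median in HL1cm, all less than 4-fold apart in mean log2 FPKM. Of 9 transcriptional targets, Fosl1, Ccnd1, Myc and Ier3 were at least 4-fold higher in mMSCs and Egr1 in HL1cm. Myc reached 136 FPKM in 1 HL1cm, above the highest mMSC (122 FPKM). In mMSC-PC and HL1cm-PC, Myc (115 and 87.4 FPKM) and Egr1 (27.9 and 35.6 FPKM) were less than 4-fold apart. Fosl1 (11.1 and 0 FPKM), Ccnd1 (53.8 and 0 FPKM) and Ier3 (985 and 87.1 FPKM) were further apart there. Ccnd1, which drives the cell into S phase, was at 10.9 to 219 FPKM in mMSCs and at most 1.56 FPKM in HL1cm, while Egr1 reached 493 FPKM in HL1cm (median 45.1) against a median of 7.81 FPKM in mMSCs. Shc1 and Fosl1 are named because they passed the limit. HL1cm differed in epithelial markers as well: Krt18 was at 17.0 FPKM or more in every HL1cm and Epcam was found in 3, with Cdh1 and Cldn4 at 0 and the summed list at 24.6 to 312 FPKM in HL1cm and 0 to 7.33 FPKM in mMSCs; their part in the levels of Met, Erbb2 and Ddr1 was not tested.

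**Figure D4:**
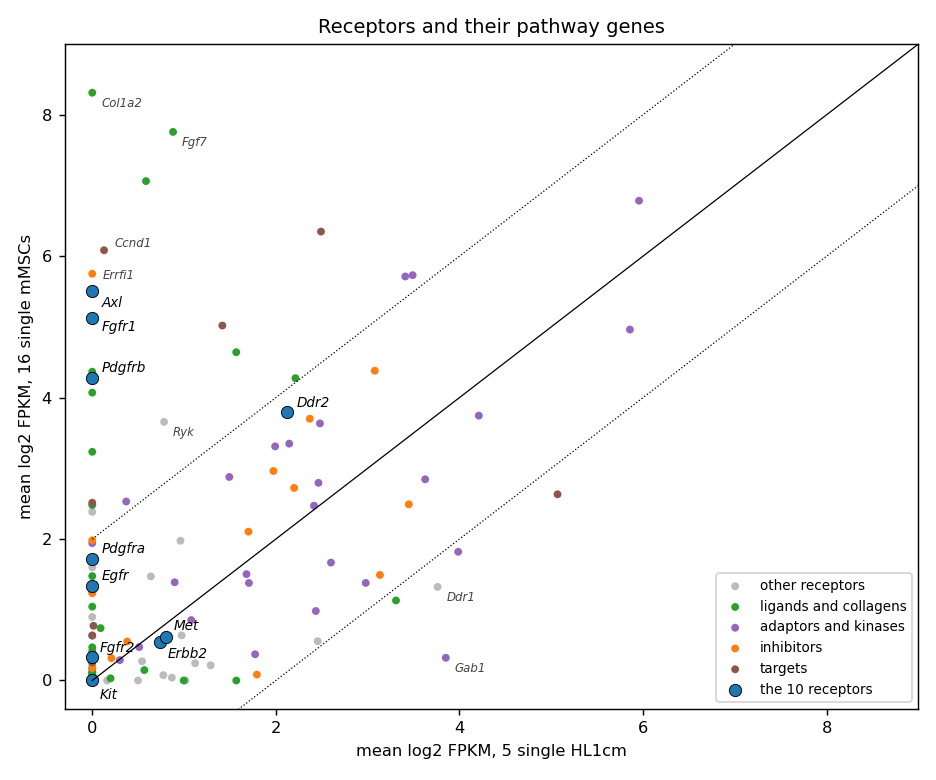
Mean log2 FPKM (values under 1 FPKM set to 1) over 16 single mMSCs (vertical axis) against 5 single HL1cm (horizontal axis) for the 10 receptors (large blue points) and genes of their pathways (small points, coloured by role); the solid line marks equal levels and the dotted lines 4-fold. Axl, Fgfr1 and Pdgfrb sit on the left edge at 5.51, 5.12 and 4.28, Ddr2 lies just inside the upper dotted line, and most adaptors and kinases lie between the lines.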

How the data were processed

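The values were FPKM as deposited: per the study's methods, the authors aligned paired reads of 75 bases to mm10 with TopHat2 2.0.12 and estimated FPKM with Cufflinks 2.2.1 under default options, and normalized to gene length and mapped fragments. SMARTer and Nextera XT libraries do not mark strand. Cells were grouped by their labels, and receptors were matched by symbol. For log2 values, a floor of 1 FPKM was applied. A gene counted as detected at 1 FPKM, and was tested for a 4-fold difference where it was detected in at least 2 of the 21 single cells. No count model was run, since the table holds no counts, and no p-value was computed.

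The FPKM value of 1 read pair per kilobase was approximated as the 5th percentile of FPKM times transcript length over 2015 genes of 1 GENCODE M21 transcript of at least 1500 bases. Receptor lengths were those of the longest GENCODE transcript, so read pairs are rough and overstated where the authors' gene model was shorter. Intervals are exact (Clopper-Pearson, 95%). Promoters were from RefSeq (GRCm38.p6).

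The receptors and the 17 other gene lists were chosen with earlier results of these data known. Named were all receptors, and of each list the 3 genes with the highest mean in each cell type, those with the largest difference in each direction, and any others the text marks, except that some genes of the marker lists are given only in summed levels; 1 result of the list of adaptors and kinases is not reported here. For each receptor in at least 8 mMSCs, the 3 genes with the largest Pearson's r were named. The scripts were tested on simulated data. Other floors, limits, scalings and sets of cells were tried (83 settings, and 6 more chosen after seeing the data). Computations ran in Python 3.11.15 (pandas 2.3.3, numpy 2.4.6, scipy 1.17.1; plots by matplotlib 3.10.9).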

Additional observations from a re-analysis of the deposited data

Results flagged for a closer look

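Met and Erbb2 in HL1cm were marked because 1 cell stood far from the other 4, which were all listed at 0. Met was at 16.5 FPKM in HL1cm3 and Erbb2 at 12.97 FPKM in HL1cm2. These were 2 of the 3 receptors examined in this way in the 5 HL1cm, and with 4 values at 0 any lone value above 1 FPKM is marked. Values under 1 FPKM were set to 1 first, so Fgfr1 at 0.934 FPKM in HL1cm4 was not marked. Chance marks about 1 in 20 groups of normally spread values, which these are not. Single values of this kind were also seen in mMSCs, as for Erbb2 at 15.8 FPKM in mMSC12. HL1cm-PC was at 9.14 FPKM for Erbb2 and at 0 for Met.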

How the results depend on the processing

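The number of receptors at least 4-fold higher in mMSCs was 3. It became 5 with values under 0.1 FPKM set to 0.1 (adding Pdgfra and Egfr), 1 with values under 10 FPKM set to 10 (Axl), and 6 at a limit of 2-fold (adding Pdgfra, Egfr and Ddr2); leaving out single cells in turn gave 3 to 4, where 4 came without HL1cm5 and added Ddr2. It was also 4 on the TPM scale, divided by Gapdh and without the cells rich in Mir3470a (each adding Ddr2), and 4 by log2 of the mean FPKM (adding Pdgfra, at 2.71). It stayed at 3 under median ratio scaling and at a limit of 8-fold. The share of all genes called was not computed at these other floors, folds and sets of cells. A looser setting can call more genes of any kind, so these counts cannot be read as a property of the receptors. The median number of receptors per mMSC was 7 counting any value above 0 and 4 at a limit of 10 FPKM, against 6. Per HL1cm it was 2 on the TPM scale and 2 counting any value above 0, against 1. Of all genes, 9.21% differed 4-fold and 2.01% did not overlap when no filter was used, against 18.0% and 3.96%, since genes listed at low values entered the total. No direction of a called difference reversed, but between single cells Axl and Pdgfrb, at 0 in all 5 HL1cm, could not reverse. Of the main comparisons, 122 values stayed within their limits and 9 moved, and of the other values 607 stayed and 43 moved. Those that stayed include the values of Kit, which was at 0 in every library and could not move. The alternative without the 7 cells rich in Mir3470a was chosen after seeing the data. No paired analysis was possible because the results come from no test and the shared replicate numbers are only names of cells. Depth limits the low values: Fgfr2 rests on about 1.24 to 9.98 read pairs in the 7 mMSCs that have it, Erbb2 on 1.99 to 27.4 in 4 and Met on 1.05 to 21.5 in 7, and a receptor at 0 in a shallow library such as mMSC9 or mMSC15 cannot be told from one below its limit of detection. The 5 HL1cm and 1 culture of each type limit every difference between cell types.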
